A study of Homo sapiens with 16 samples.

Results

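The comparison described here is that of BMAL1 knockout (KO) with wild-type (WT) MDA-MB-231 cells, both given tunicamycin. MDA-MB-231 is an established, mesenchymal-like line of human breast cancer that lacks the oestrogen receptor. Total RNA was sequenced from 4 of the 16 libraries of the series, 2 WT and 2 KO, which the labels call biological replicates. The other 12 libraries hold the same 2 genotypes left untreated (control) or given cisplatin or doxorubicin. Cells of every group were at passage 10-15, and the dose and time of tunicamycin, the edit in BMAL1 and whether the KO cells are 1 clone are stated nowhere in these sources. In the series' design text, tunicamycin served as a negative control, a treatment whose effect was held to depend little on BMAL1. The deposited table gives 1 value per gene and group, made by the authors from both libraries of the group. A spread between replicates can therefore not be given, and every level below is one group value in FPKM (fragments scaled to transcript length and to the library total), written from WT to KO. Of 60658 genes, the 9164 that reached 5 FPKM in at least 1 of the 2 groups are described. Of these, 475 passed through WT alone, 441 through KO alone and 8248 through both, and the authors tested 9146. At the edge of this rule, SPAG4, ZBTB11 and GTF2H2 had a higher level of 5.002, 5.004 and 5.006, and C7orf43, IRX5 and FYCO1 stayed just outside.

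BMAL1, the product of ARNTL, pairs with CLOCK or NPAS2, binds E-box sequences and activates the PER and CRY genes, whose proteins repress it in turn, so that transcript levels cycle over the day. Tunicamycin blocks DPAGT1, the enzyme that starts the dolichol-linked sugar chain from which N-glycans are transferred to proteins in the endoplasmic reticulum (ER). Unglycosylated proteins then misfold, and the sensors ATF6, IRE1 and PERK raise chaperones, degradation factors and, through ATF4, genes of amino acid supply. This is the unfolded protein response. In control cells the WT level of HSPA5, the main ER chaperone and a standard marker of this response, was 311 FPKM, against 5887 in WT and 7050.1 in KO cells given tunicamycin, although levels of tables normalized separately are set side by side only as a guide.

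The cells carried the markers of the labelled line in both genotypes. All 10 mesenchymal breast markers were present, with VIM at 4339.8 to 3745 and LGALS1 at 2999 to 2651. Of the 11 luminal markers, ESR1, PGR, CDH1 and FOXA1 were at or near 0. Others were expressed, and the 11 summed to 1189 in WT and 1216 in KO. The keratins KRT8, KRT18 and KRT19 stood at 407 to 447, 382 to 511 and 260 to 102, and XBP1 was present too. In all, 5 luminal markers were tested at 5 FPKM or more. The extraction protocol speaks of fibroblast lines, but DCN, LUM, COL3A1 and PDGFRA were listed at 0 in both groups, and the 10 fibroblast markers summed to 3.33 in WT and 9.99 in KO, nearly all COL1A1 and PDGFRB. Of 11 leukocyte markers, summing to 148.0 and 173.1, CD68 made up 147 to 173 and PTPRC and CD3E were at or near 0. The 8 endothelial markers summed to 0.80 and 4.81, of which PECAM1 was 0.272 to 4.14. In such bulk samples, fewer cells of a type and less RNA per cell cannot be told apart.

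A gene is said to have been called where the authors tested it and their q-value, adjusted over the tested genes of the table, was at most 0.05. Differences are given as a log2 ratio, log2 of (KO FPKM + 1) over (WT FPKM + 1), a scale that understates the change of low genes. The KO and WT cells differed widely under tunicamycin, mostly by small amounts. The authors' test called 5571 of the 9146 genes (60.9%), of which 3303 (36.1%) had the higher level in KO and 2268 (24.8%) the lower. At 2-fold or more on that scale, 313 (3.42%) were called higher and 238 (2.6%) lower, so that 5020 calls, 90.1%, lay under 2-fold. The median log2 ratio was 0.07, the 5th and 95th percentiles were -0.73 and 0.84, and the smallest called difference was 0.04. The share called rose with level, from 42.0% of genes whose higher level was 5 to 10 FPKM to 88.5% at 100 FPKM or more. At 5 to 10 FPKM, 406 of 2057 genes were called higher and 458 lower, with a median of -0.008. At 100 FPKM or more, 769 of 1199 were called higher and 292 lower, with a median of 0.20. The smallest q in the authors' deposited table, 0.000173, was shared by 4016 genes and does not rank them.

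**Figure D1:**
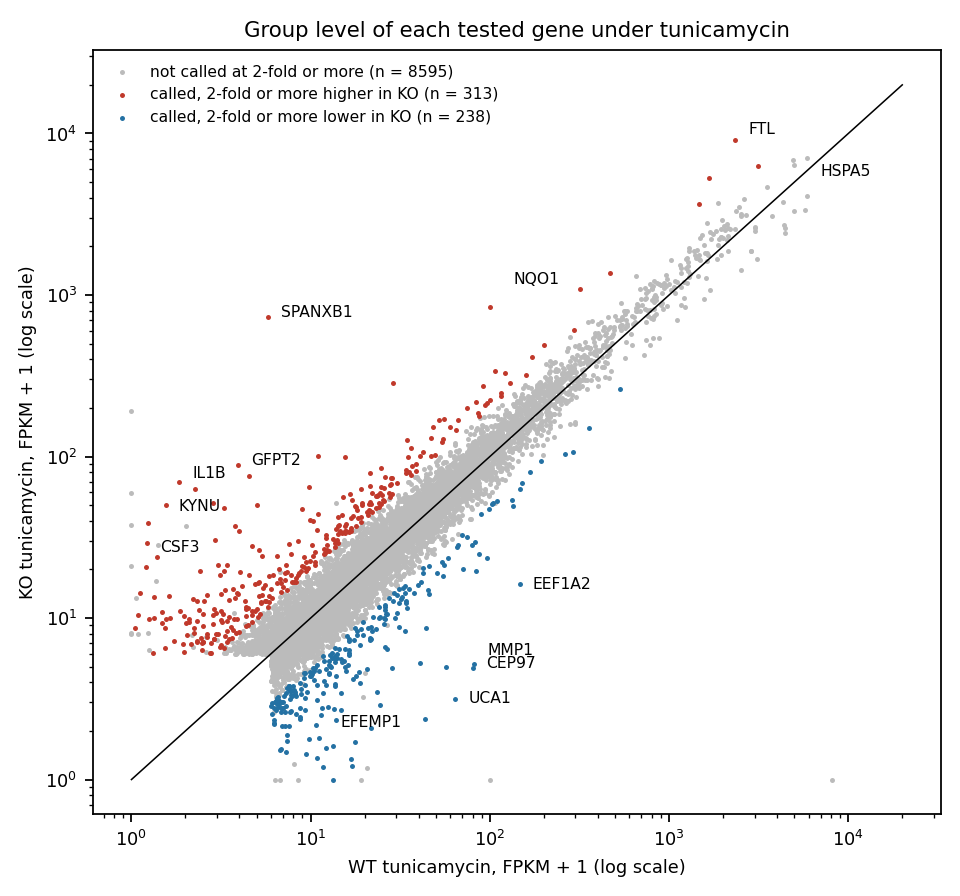
Each point is 1 of the 9146 tested genes, with its WT level on the horizontal and its KO level on the vertical axis, both as FPKM + 1 on log scales under tunicamycin, and the line marks equal levels. Most genes lie near the line, the 313 called higher at 2-fold or more (red) reach up to SPANXB1 at 4.79 to 731, and the 238 called lower (blue) include UCA1, MMP1 and CEP97.

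ARNTL, on chromosome 11 at 13276652 to 13387266 (GRCh38, plus strand, the whole gene), was 3.25 to 2.24, a log2 ratio of -0.39 with q = 0.0810 in the authors' deposited table, and so was not called. It fell from 5.67 to 0.889 in control cells and from 1.31 to 0.474 with doxorubicin, and was 1.26 to 0.941 with cisplatin, where it was not called (q = 0.467 in the authors' deposited table). Its paralog ARNTL2 rose from 10.1 to 13.6, and the partner NPAS2 rose from 42.8 to 58.95, while CLOCK was 8.36 to 9.19. NPAS2 and CLOCK lie in chromosome windows that were shifted as a whole (described at the end).

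Of the repressors that BMAL1 activates, PER1 rose from 5.405 to 10.3, CRY1 from 18.2 to 30.6, and, below 5 FPKM, PER2 from 0.917 to 4.71 and CRY2 from 2.23 to 3.73. Of the 4750 tested genes below 5 FPKM, 27% were called, 10.1% higher and 16.8% lower. PER3 (1.35 to 0.811) and CIART (0.436 to 0.0947) were not called. So 4 of the 6 repressors were called higher in the KO cells. In the second loop, whose members act on ARNTL or on clock output genes, NR1D2 (REV-ERB beta) fell from 19.7 to 3.84, a log2 ratio of -2.10, and NFIL3 fell from 15.8 to 13.8. Outside shifted windows, 1 of 3 second-loop genes tested at 5 FPKM or more was called lower. NR1D1 (5.27 to 5.48), BHLHE40 (22.3 to 22.6) and DBP (1.21 to 1.64) were not called. The output factor TEF rose from 1.46 to 4.49, and BHLHE41 (DEC2) from 0.913 to 1.85. The clock genes thus did not move one way, and REV-ERB beta fell while its paralog REV-ERB alpha (NR1D1) was not called.

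Promoter sequences of the clock genes are shown for the E-box, CACGTG, which reads the same on both strands. In RefSeq promoters (GRCh38.p14, 250 bases before to 50 after the start), 5 of the 18 clock genes with an entry hold it, against 7.2% of 34796 promoters of that length. They are PER1, CIART, BHLHE40, BHLHE41 and TEF, of which 3 rose and BHLHE40 and CIART were not called. The D-box, TTACNTAA on either strand, is in PER2 and PER3, 2 of 18 against 2.18%. The stretches below, each on its gene's strand with the E-box in capitals, are from the 3 that rose, at chr17:8152547-8152602 (minus strand), chr22:41367235-41367290 (plus) and chr12:26125055-26125110 (minus).
PER1: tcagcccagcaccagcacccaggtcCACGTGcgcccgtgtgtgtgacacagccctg
TEF: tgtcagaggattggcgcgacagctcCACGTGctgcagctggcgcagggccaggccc
BHLHE41: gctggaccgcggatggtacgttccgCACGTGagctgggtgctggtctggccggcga

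Gene lists were compared by the share of their tested members that were called, read against the shares over all tested genes. A list above 36.1% higher or 24.8% lower departs from the whole table, which is a description and not a test of the list. These shares were not matched for level. Lists of abundant genes, such as ribosomal proteins, are also to be read against the genes at 100 FPKM or more. Of those, 769 of 1199 were called higher, with a median log2 ratio of 0.20. The members and the lists were chosen with earlier results of these data known.

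**Figure D2:**
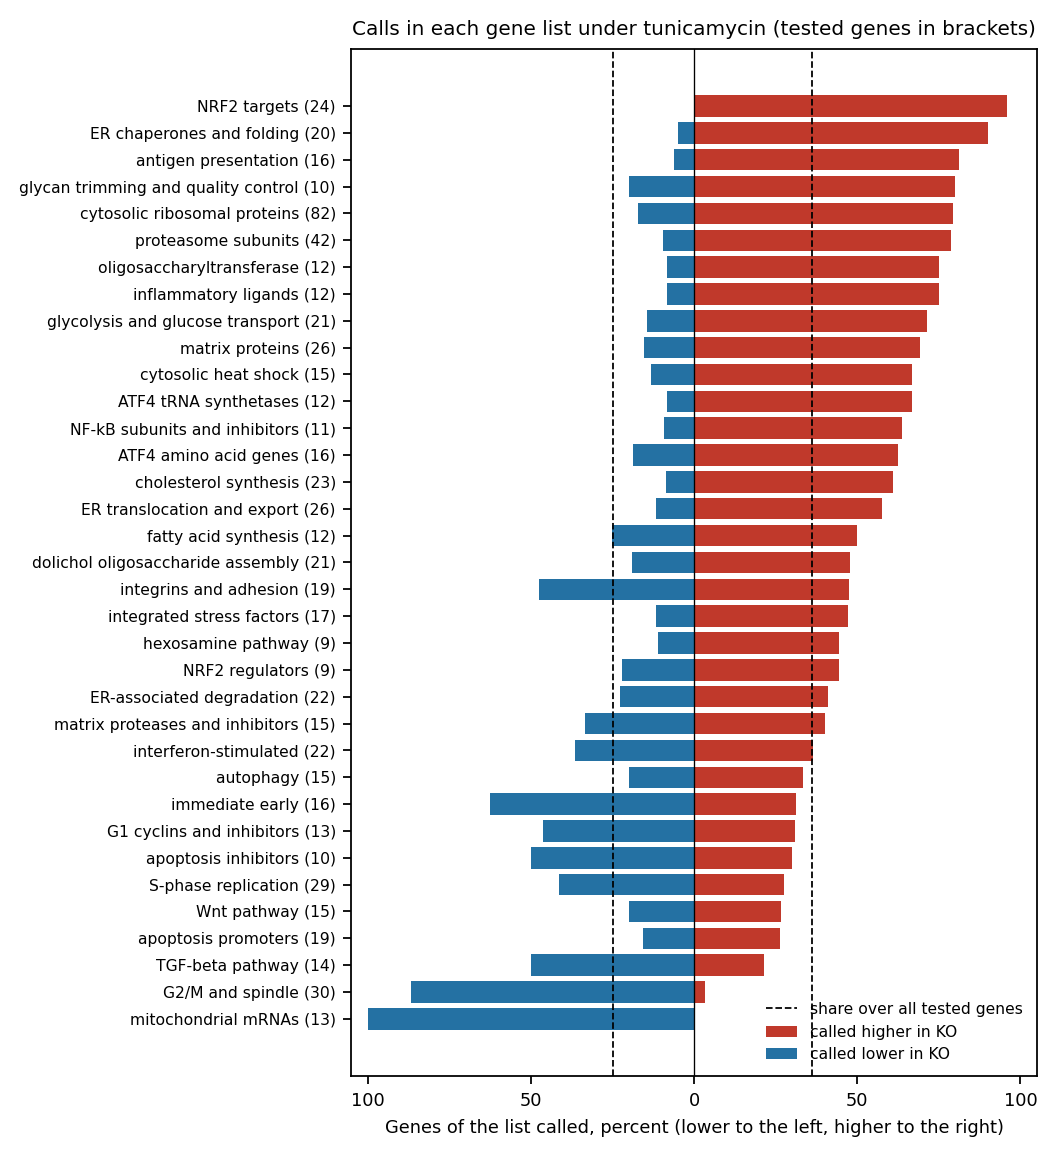
Each row is a gene list with 9 or more tested genes (their number in brackets), the red bar is the percent of them called higher and the blue bar the percent called lower in KO under tunicamycin, and the dashed lines are the shares over all tested genes. NRF2 targets (23 of 24 higher) and ER chaperones (18 of 20) are at the top, G2/M genes (26 of 30 lower) and mitochondrial mRNAs (13 of 13 lower) at the bottom.

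Chaperones and folding enzymes of the ER were higher in KO cells in nearly every case, by small amounts. Of 20 tested, 18 were called higher and 1 lower, and their median log2 ratio was 0.43 against 0.07 over all genes. HSPA5 (BiP), which holds unfolded chains in the lumen and keeps the sensors inactive, rose from 5887 to 7050.1, a log2 ratio of 0.26. It was the most abundant of them, and it lies in a 10 Mb window of chromosome 9 whose 91 tested genes had a median of -0.42. Among its helpers, DNAJC3 (p58IPK), which also restrains PERK, rose from 53.5 to 127, the only one past 2-fold, where the chromosome 13 window had a median of 1.02. SDF2L1, which keeps clients soluble, rose from 455 to 735, and HYOU1, an exchange factor of BiP, from 735 to 1102. The disulphide isomerases PDIA3, PDIA4 and P4HB rose from 431 to 632, 405 to 541 and 757 to 1060.5, and their oxidase ERO1A from 24.8 to 37.4. DNAJB9, which brings BiP to the sensor IRE1, was 61.7 to 70.03 and was not called. HSP90B1 (GRP94) was called lower, 469 to 453, a log2 ratio of -0.05, and its window on chromosome 12 had a median of -0.36. The ratio of DNAJC3 was thus near the median of its window, and the rise of HSPA5 went against that of its own.

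The promoters of 4 of 36 ER genes with an entry hold the full ER stress element (CCAAT, 9 bases of any kind, CCACG), searched on both strands, against 27 of 34796 promoters (0.0776%). They are those of HSPA5, HSP90B1, CRELD2 and ERO1B, shown because this element is the textbook site of ATF6 with NF-Y. The stretches, on each gene's strand with the element in capitals, are at chr9:125241366-125241434 (minus), chr12:103930191-103930364 (plus), chr22:49918529-49918597 (plus) and chr1:236282158-236282208 (minus). Of the 4 genes, 3 were called higher in KO and 1 lower, and CRELD2, a secreted folding factor, was 79.04 to 114, and ERO1B, an oxidase, 10.3 to 12.04. In CRELD2 and ERO1B the element is on the opposite strand, and HSP90B1 has 1 copy on each.
HSPA5: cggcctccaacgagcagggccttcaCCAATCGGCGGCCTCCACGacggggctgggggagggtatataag
HSP90B1: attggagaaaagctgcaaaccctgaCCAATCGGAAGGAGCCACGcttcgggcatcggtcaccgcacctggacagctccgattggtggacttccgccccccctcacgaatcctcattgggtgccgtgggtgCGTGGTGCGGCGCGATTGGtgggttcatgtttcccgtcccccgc
CRELD2: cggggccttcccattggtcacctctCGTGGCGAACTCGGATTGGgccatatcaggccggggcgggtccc
ERO1B: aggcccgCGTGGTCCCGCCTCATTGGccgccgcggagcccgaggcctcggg

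The same genes were less uniformly called in control cells, where 52.3% of 9226 genes were called (27.7% higher, 24.6% lower). There 13 of the 20 chaperones were higher and 3 lower, with a median of 0.23. For 13 of 20 the log2 ratio was larger under tunicamycin than in control, as it was for 52.8% of all 9146 tested genes, a difference between separately normalized tables that has no test. The median of the 20 was 0.20 with cisplatin and 0.58 with doxorubicin, where that of all genes was 0.02 and 0.03, so the higher chaperone levels of KO cells were not limited to tunicamycin. SIL1, an exchange factor of BiP, was 71.8 to 97.4 under tunicamycin and 87.2 to 69.6 in control, and MANF was 804 to 927 against 206 to 195.

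**Figure D3:**
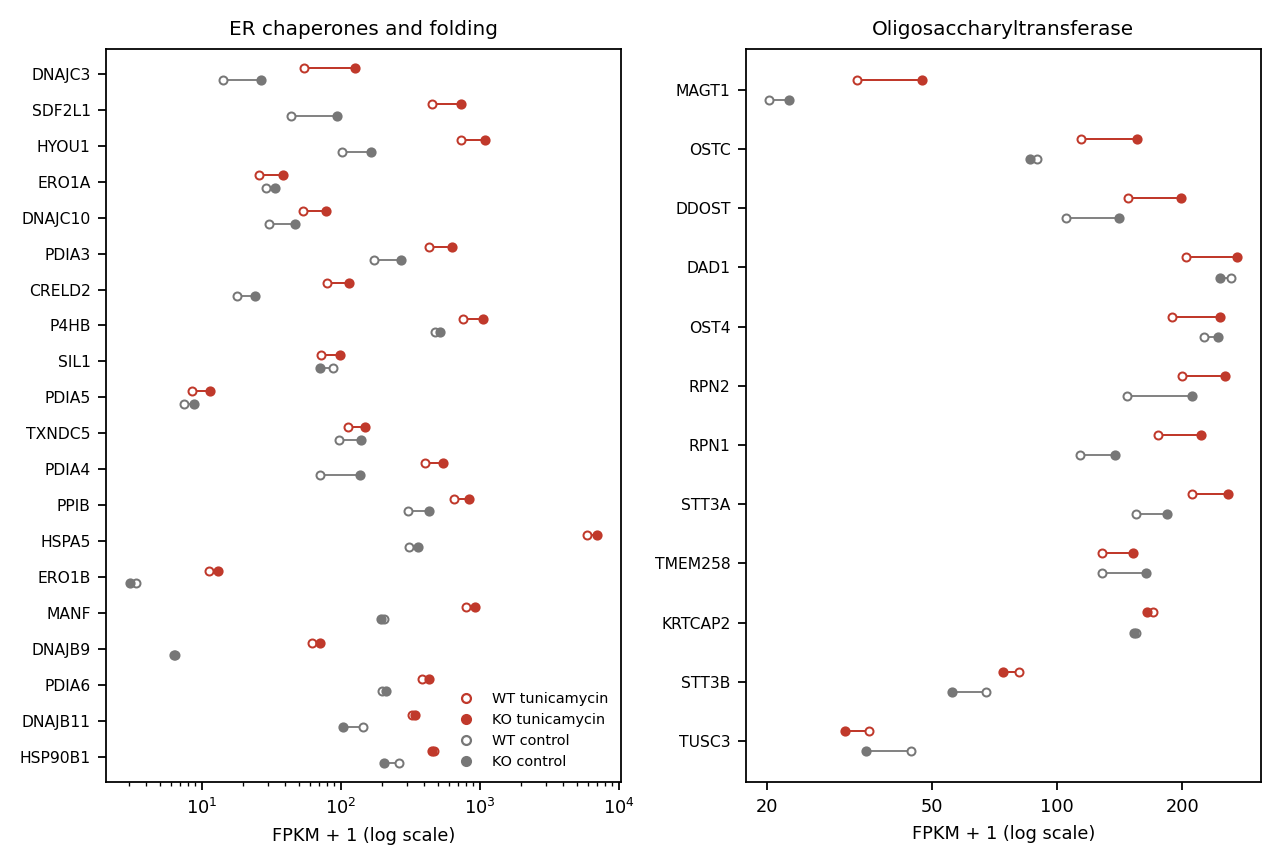
Levels of the 20 ER chaperone and folding genes (left) and the 12 oligosaccharyltransferase genes (right) as FPKM + 1 on a log scale, with open circles for WT, filled circles for KO, red for tunicamycin and grey for control, and 1 group value per circle. Filled red circles lie to the right of open ones for 19 of 20 chaperone genes and 9 of 12 oligosaccharyltransferase genes.

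The sensors differed less. ATF6B, a paralog of ATF6, rose from 18.01 to 31.3, and MBTPS1, the protease that releases ATF6, rose from 26.2 to 33.7. XBP1, the factor spliced by IRE1, rose from 115 to 138, though a gene level does not show splicing. ATF6 (19.9 to 20.5), EIF2AK3 (PERK, 11.9 to 10.8) and, below 5 FPKM, ERN1 (IRE1, 3.39 to 4.09) were not called. Of the 6 sensor genes tested at 5 FPKM or more, 3 were called higher.

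Genes of ER-associated degradation went both ways, with 9 of 22 called higher, 5 lower and a median of 0.07, equal to that of all genes. SEL1L, the adaptor of the HRD1 ligase, rose from 103 to 178, EDEM2, a mannosidase that marks clients, from 20.8 to 35.1, and HERPUD1 from 385 to 579.6. The ligase itself, SYVN1, fell from 84.7 to 77.4, and VCP, the ATPase that pulls clients out, fell from 474 to 335, in a shifted window of chromosome 9. DERL3, a channel component that was under 5 FPKM, fell from 3.97 to 1.88. For 19 of the 22 the ratio was above that in control, where 3 were called higher and 8 lower, and the median was -0.03 with cisplatin and -0.23 with doxorubicin.

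Of 26 genes of translocation into the ER and export from it, 15 were called higher and 3 lower, with a median of 0.18. The signal peptidase subunit SPCS3 rose from 61.8 to 96.4, the translocon-associated SSR1 from 145 to 217, and the translocation channel SEC61A1 from 234 to 276. All 3 KDEL receptors, which return escaped chaperones to the ER, fell, KDELR1 from 177 to 125, KDELR3 from 20.2 to 17.1 and KDELR2 from 134 to 48.3. KDELR2 lies in the segment of chromosome 7 that was lower as a whole.

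In the pathway that tunicamycin blocks, 31 of 52 genes were called higher and 8 lower, with a median of 0.24. The drug's target DPAGT1 rose from 45.8 to 57.99, a log2 ratio of 0.33, and had a like ratio in control (28.9 to 40.3, 0.47). Upstream, the hexosamine enzymes make the sugar donor UDP-GlcNAc. Their entry step is carried by GFPT1 and GFPT2, and these moved against each other, with GFPT2 rising from 2.94 to 87.5 and GFPT1 falling from 46.9 to 41.5. In control GFPT2 was 3.46 to 73.4 and GFPT1 15.8 to 10.7. The later steps GNPNAT1, PGM3 and UAP1 rose from 30.02 to 43.4, 34.6 to 49.9 and 135 to 164, and UAP1 was 104 to 78.2 in control.

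In the assembly of the dolichol-linked chain, 10 of 21 genes were called higher and 4 lower. ALG5 rose from 37.8 to 80.4 and ALG11 from 6.06 to 13.1, both in the higher segment of chromosome 13, and all 4 that fell, ALG2, DPM2, DOLPP1 and DOLK, lie in shifted windows too. Away from them, MPDU1, needed to use the mannose donor, rose from 88.7 to 122, the mannosyltransferase ALG12 from 21.98 to 28.4 and NUS1, a subunit of the enzyme that makes dolichol, from 17.8 to 23.8. Of the oligosaccharyltransferase, the complex that moves the chain onto proteins, 9 of 12 subunits were called higher, at a median of 0.34 and none past 2-fold. DDOST rose from 147 to 197, RPN1 from 174 to 221, and the catalytic STT3A from 209.7 to 256, while the other catalytic subunit STT3B was 80.1 to 73.05 and was not called. MAGT1, the oxidoreductase of the STT3B complex, rose from 32.00 to 46.2, and its paralog TUSC3 fell from 34.2 to 29.8. In glycan trimming and quality control 8 of 10 were called higher, 3 of 10 had a larger ratio than in control, with CALR (calreticulin) 1821 to 2485, CANX (calnexin) 1166 to 1369 and the folding sensor UGGT1 24.7 to 31.9. The trimming glucosidase subunit PRKCSH and the mannosidase MAN1B1 fell, from 273 to 242 and 31.5 to 23.5. Outside shifted windows, 8 of 9 trimming and quality control genes were called higher and 1 lower.

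Along the PERK and ATF4 branch, 26 of 45 genes were called higher and 6 lower, with a median of 0.15, and for 34 of 45 the ratio was above that in control. ATF4 itself rose from 473 to 552, a log2 ratio of 0.22. Of the factors, the stress cytokine GDF15 rose from 116 to 208, the mTOR inhibitor DDIT4 from 150.2 to 244, and TRIB3, a feedback inhibitor of ATF4, from 187 to 203. In the authors' deposited log2 ratios, with no FPKM added, these were 0.85, 0.70 and 0.12 under tunicamycin and 0.93, 0.85 and 0.25 in control. So none of them was larger under tunicamycin, and TRIB3 was not called in control. DDIT3 (CHOP), the factor that links this branch to cell death, fell from 186 to 157, and in control it was 12.1 to 14.5. PPP1R15A (GADD34), which reverses the block of translation, was 194 to 199 and was not called. ATF3 (9.32 to 7.94) and SESN2 (25.9 to 27.4) were not called either. Of the 17 factors tested, 8 were called higher and 2 lower, the second of them the lipoprotein receptor VLDLR (10.4 to 4.73).

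The amino acid genes showed larger ratios. MTHFD2, of mitochondrial folate metabolism, rose from 121 to 328, the cystine carrier SLC7A11 from 20.7 to 49.5, and the cationic amino acid carrier SLC7A1 from 84.6 to 185, all past 2-fold. Their deposited log2 ratios were 1.44, 1.26 and 1.13 under tunicamycin and 0.70, 1.34 and 1.23 in control. Of these 3, only that of MTHFD2 was thus larger under tunicamycin. On the scale with 1 FPKM added, 12 of the 16 tested genes of this list had the larger ratio under tunicamycin, against 52.8% of all genes. The median of the 16 was 0.19 under tunicamycin and -0.05 in control. Asparagine synthetase, ASNS, rose from 97.4 to 132, while its control values were 18.2 to 9.75. PSAT1, of serine synthesis, fell from 216 to 175 and the neutral amino acid carrier SLC1A4 from 12.8 to 7.995. Outside shifted windows, 9 of 14 amino acid genes were called higher and 2 lower. PHGDH, the first enzyme of serine synthesis, was near 0 in both groups. Of 12 tRNA synthetases and related genes, 8 were called higher and 1 lower, with a median of 0.20 against -0.04 in control, and 11 of 12 had the larger ratio under tunicamycin. It was -0.10 with cisplatin and -0.09 with doxorubicin. GARS was 298 to 479, against 128 to 116 in control, and WARS was 312 to 468, against 78.5 to 95.1. Outside shifted windows, 8 of 11 of the synthetases and related genes were called higher and 0 lower.

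Cell death genes did not move as a set. Of 19 promoters of apoptosis, 5 were called higher and 3 lower, and of 10 inhibitors 3 were higher and 5 lower. CASP4, an inflammatory caspase found at the ER, rose from 16.1 to 52.7, and BID, which links death receptors to mitochondria, from 44.5 to 84.95. TNFRSF10B (DR5), the death receptor raised by CHOP, was 55.4 to 54.1 and was not called, nor was BBC3 (PUMA, 6.44 to 6.298) or PMAIP1 (NOXA, 24.3 to 23.5). BCL2L11 (BIM), under 5 FPKM, fell from 2.91 to 1.67. TXNIP, which binds thioredoxin, fell from 85.7 to 23.9. The protective MCL1 and BCL2L1 fell from 232 to 198 and 339 to 296, and BAG3 rose from 90.1 to 122.

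Targets of NRF2 (NFE2L2), the factor that answers oxidants and electrophiles, had the highest share of genes called higher among the lists with 9 or more tested genes. Of 24 tested, 23 were called higher, 15 of them at 2-fold or more, with a median log2 ratio of 1.28 against 0.07 over all genes. It was 0.92 in control, 0.56 with cisplatin and 0.73 with doxorubicin. The ferritin chains FTL and FTH1, which store iron, rose from 2329.8 to 9059 and 1670.0 to 5316 and were among the most abundant transcripts of the KO cells. NQO1, a quinone reductase, rose from 319 to 1094, a log2 ratio of 1.77. SRXN1, which repairs peroxiredoxins, rose from 51.1 to 167, and in control from 56.7 to 88.9. For NADPH supply, ME1 rose from 6.23 to 17.9 and PGD from 86.95 to 172. For glutathione, the catalytic GCLC rose from 9.35 to 23.2, its partner GCLM from 35.4 to 66.3 and the reductase GSR from 13.01 to 23.7. GCLC was 5.86 to 7.13 in control and was not called there, in cisplatin or in doxorubicin. Its window on chromosome 6 had a median of 0.47. TXNRD1, thioredoxin reductase, rose from 198 to 489.9 against the fall of its chromosome 12 window. HMOX1, haem oxygenase, rose from 37.5 to 57.5 (control 15.1 to 16.6). TXN was 458 to 468 and was not called. AKR1C1 and AKR1C3 also rose, from 1.43 to 18.4 and 3.13 to 14.8, but the near-identical copies of this family, of which AKR1C2 was 1.32 to 1.23, make them uncertain. AKR1C1 and AKR1C3 passed the filter through their KO level alone, so the counts and median of this list rest in part on it. Among the 2 targets tested under 5 FPKM, 1 was called higher and 0 lower.

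The regulators differed less than the targets. NFE2L2 rose from 50.6 to 57.8, a log2 ratio of 0.19, its inhibitor KEAP1 from 52.2 to 70.1 and its partner MAFG from 29.1 to 46.9, while MAFF and MAFK fell from 42.6 to 36.02 and 18.3 to 11.3. SQSTM1 (p62), which sequesters KEAP1 and is itself an NRF2 target, rose from 468 to 1376.

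The core of the antioxidant response element, TGACNNNGC on either strand, is in 5 of the 19 NRF2 target promoters with an entry, against 13.3% of all promoters, so such a short match is common. Stretches of 3 genes that rose are shown on their gene's strand with the core in capitals, at chr12:104215655-104215713 (plus), chr1:93909431-93909489 (minus) and chr6:83431155-83431213 (minus), each being the match that lies wholly before the start. TXNRD1 and ME1 hold a further match each, across or after the start, that is not printed. The match in ME1 also holds the AP-1 letters TGACTCA.
TXNRD1: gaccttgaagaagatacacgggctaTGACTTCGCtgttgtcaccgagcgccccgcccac
GCLM: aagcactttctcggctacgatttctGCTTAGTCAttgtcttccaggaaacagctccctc
ME1: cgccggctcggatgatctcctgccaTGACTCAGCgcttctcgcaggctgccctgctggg

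**Figure D4:**
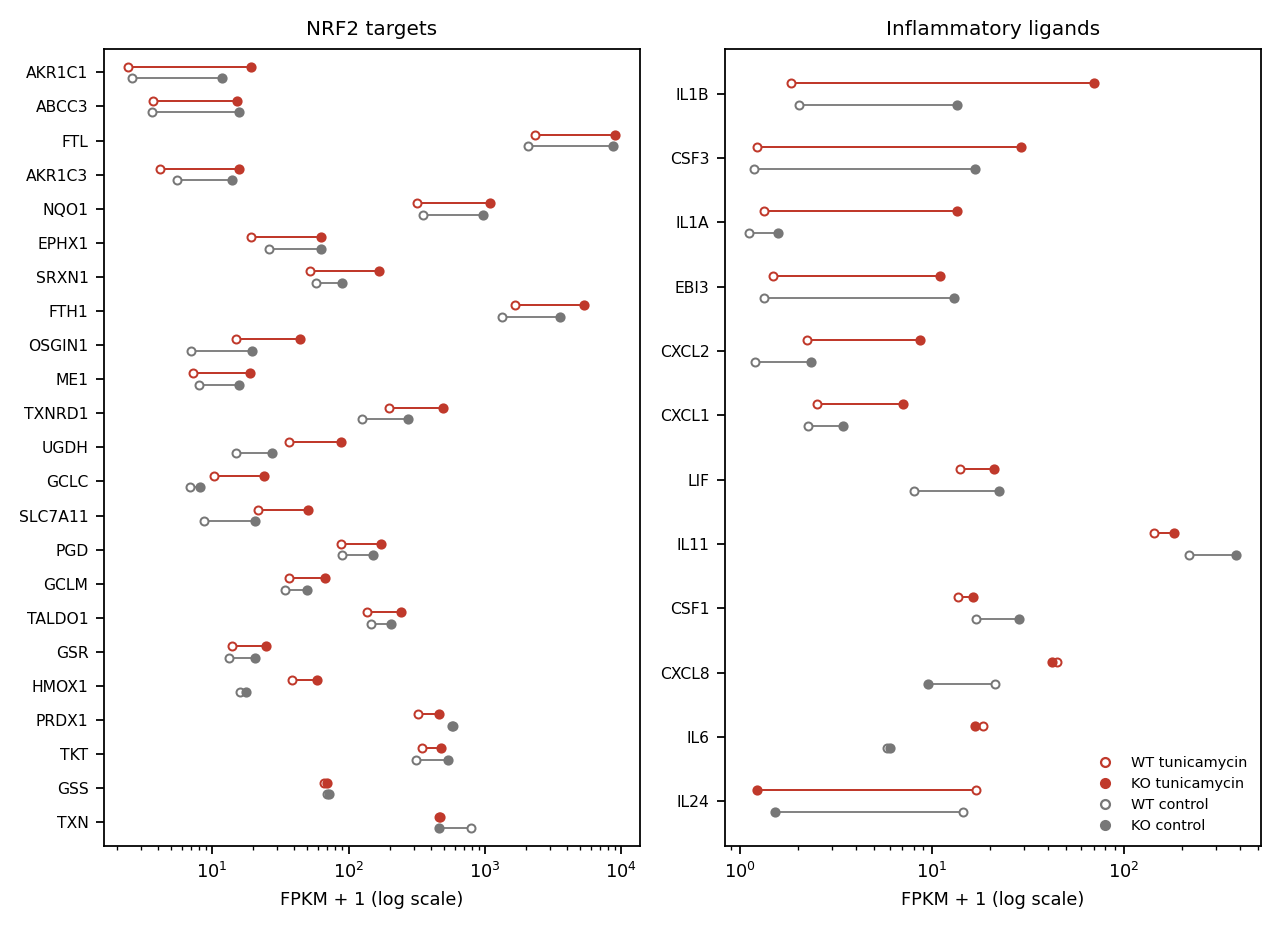
Levels of 23 of the 24 tested NRF2 targets (left) and the 12 tested inflammatory ligands (right) as FPKM + 1 on a log scale, with open circles for WT, filled circles for KO, red for tunicamycin and grey for control, and 1 group value per circle. For NQO1 the circles lie at 319 to 1094 under tunicamycin, and for IL1B at 0.849 to 68.6 under tunicamycin and 1.02 to 12.4 in control.

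Inflammatory ligands rose from near 0 in several cases. Of 12 tested, 9 were called higher and 1 lower, 6 of the 9 at 2-fold or more, with a median of 1.04 against 0.78 in control, 0.54 with cisplatin and 0.30 with doxorubicin. The ratio was above that in control for 6 of the 12. Those called higher at 2-fold or more were IL1B, IL1A, CSF3, CXCL1, CXCL2 and EBI3. Each was below 5 FPKM in WT and entered the described genes through its KO level alone. IL24, the one called lower, entered through WT alone. The counts and the median thus rest in part on this filter. With a filter on the mean of both groups 7 of 10 were called higher, and with no filter 12 of 15. IL1B, interleukin-1 beta, rose from 0.849 to 68.6 and IL1A from 0.335 to 12.5. In control the same genes were 1.02 to 12.4 and 0.116 to 0.573, so that the log2 ratio of IL1A was 3.34 under tunicamycin and 0.50 without drug. Both lie on chromosome 2 in a window with a median of 0.42. CSF3, the granulocyte growth factor, rose from 0.2195 to 27.99, and the neutrophil-recruiting chemokines CXCL1 and CXCL2 from 1.52 to 6.07 and 1.23 to 7.64. CXCL3, under 5 FPKM, rose from 0.913 to 4.15. EBI3, a cytokine subunit, rose from 0.473 to 9.95. CXCL8 (43.9 to 41.3) and IL6 (17.4 to 15.7), high in both genotypes, were not called, and TNF was at or near 0. IL24 was the one that fell, from 15.99 to 0.2200. Leukocyte markers apart from CD68 were at or near 0 in both groups, as given above.

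Of the receptors, TLR4 rose from 4.64 to 9.15 and TNFRSF1A, a TNF receptor, from 58.6 to 101, and the IL-1 receptor IL1R1, under 5 FPKM, from 0.582 to 1.38, while its accessory IL1RAP (6.29 to 7.17) was not called. The NF-kB subunit NFKB1 rose from 13.6 to 19.6 and the inhibitors NFKBIA and TNIP1 from 12.3 to 19.8 and 95.4 to 148, while RELA (59.01 to 59.7) was not called and SOD2, a target, fell from 60.8 to 37.9. In this list 7 of 11 were called higher and 1 lower, and for 2 of 11 the ratio was above that in control. Outside shifted windows, 6 of 9 were called higher and 0 lower.

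Other genes with the largest rises belong to no single group. SPANXB1, a testis-specific antigen of the X chromosome, rose from 4.79 to 731, a log2 ratio of 6.98, and SPANXA2 from 0.397 to 22.9, but copies of this family are near identical. KYNU, kynureninase of tryptophan breakdown, rose from 0.552 to 49.3, and CACNA2D4, a calcium channel subunit, from 0.241 to 38.02. WNT5A, a ligand of non-canonical Wnt signalling, rose from 0.203 to 19.7. Its antisense neighbour WNT5A-AS1 was 0.0865 to 6.98, and reads of the 2 cannot be told apart if strand was not used. Genes known from blood cells rose too, FERMT3 from 3.51 to 74.6, ARHGAP30 from 2.305 to 46.7 and LCP1 (L-plastin), in the chromosome 13 segment, from 1.93 to 29.5, with the leukocyte markers as above. The adhesion molecule CADM4 rose from 1.86 to 50.2, the secreted OLFML3 from 0.113 to 13.4 and the long noncoding MIR3681HG from 1.27 to 61.8. All 15 of the largest rises were below 5 FPKM in WT and passed the filter through their KO level alone, so their ranking rests in part on low WT values. They also all had a control log2 ratio above 0, from 0.50 (IL1A) to 6.73 (SPANXB1).

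Among the largest falls, UCA1, a long noncoding RNA, fell from 62.7 to 2.16, and EFEMP1, a matrix glycoprotein, from 42.6 to 1.38. The collagenase MMP1 fell from 80.3 to 4.21. GLUL, glutamine synthetase, fell from 55.7 to 3.99, and EEF1A2, a tissue-restricted elongation factor, from 145 to 15.2. SPNS2, which exports sphingosine-1-phosphate, fell from 20.7 to 1.07, STOM (stomatin) from 16.7 to 0.712 and NEO1, a receptor of netrins and a BMP co-receptor, from 9.91 to 0.353. FGF13 fell from 10.8 to 0.197, CLEC11A from 15.7 to 0.342, INHBB, an activin subunit, from 23.2 to 1.88 and the surface marker CD24 from 12.3 to 0.608. CA8 fell from 12.3 to a value listed at 0. CEP97, a centrosome protein that restrains cilia, fell from 79.7 to 3.91. Its control values were 7.12 to 4.23, so the WT tunicamycin level stood far above the other 3. Apart from EEF1A2, the 15 largest falls were all below 5 FPKM in KO and passed the filter through WT alone.

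At high levels the genes that passed 2-fold were few. Beside the ferritin chains and SQSTM1, the cytoplasmic actin ACTG1 rose from 3142 to 6306 and TPT1, a growth-related protein gene of the chromosome 13 segment, from 1474 to 3633. TAGLN2, an actin-binding protein, fell from 534 to 262, the hyaluronan receptor CD44 from 355 to 149, the small GTPase RAC1 from 289 to 106, the keratin KRT19 from 260.4 to 102 and the membrane linker EZR from 191 to 93.4. CD44, RAC1 and EZR lie in shifted windows.

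Genes of division were lower in KO by small amounts. Of 30 G2/M and spindle genes, 26 were called lower and 1 higher, none past 2-fold, with a median of -0.30, against -0.44 in control, -0.29 with cisplatin and -0.15 with doxorubicin. CCNB1 (cyclin B1) fell from 265 to 220.1, the kinase PLK1 from 115 to 95.7, TOP2A from 100.1 to 70.7 and CENPF, of the kinetochore, from 77.8 to 40.1. CKS1B, a cofactor of cyclin-dependent kinases, was the one that rose, from 219.8 to 258. Of 29 replication genes, 12 were lower and 8 higher, with PCNA from 101 to 70.5 and CDC6 from 139 to 183. Of the G1 genes, CCND1 (cyclin D1) fell from 182 to 117 and the inhibitor CDKN2C from 30.05 to 14.03, and CDK6 rose from 8.11 to 13.7.

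Of 82 tested genes of cytosolic ribosomal proteins, 65 were called higher and 14 lower, with a median of 0.26. In control 29 were higher and 43 lower, with a median of -0.08, and for 70 of 82 the ratio was larger under tunicamycin. The median was 0.10 with cisplatin and 0.28 with doxorubicin, the second as high as here. RPL21 was 653 to 1304 (control 1039 to 1445), RPS3 was 1765 to 2398 (control 2343 to 2145), and many members share reads with processed pseudogenes. Of 42 proteasome subunits 33 were called higher and 4 lower, with a median of 0.22, against 14 higher, 15 lower and a median of -0.04 in control, and medians of 0.18 with cisplatin and 0.24 with doxorubicin. In both groups the control median was the lowest of the 4 tables. PSMA3 of the core rose from 97.9 to 176 and PSMD7 of the lid from 75.1 to 110.2. The immunoproteasome subunits PSMB8, PSMB9 and PSMB10 rose from 29.7 to 50.9, 18.5 to 32.9 and 23.5 to 58.4. The difference of these ratios between tables was not tested.

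All 13 mRNAs of the mitochondrial genome were called lower, with log2 ratios from -0.88 (MT-ND3) to -0.52 (MT-ATP8) and a median of -0.69. In control the median was -0.24, with 12 lower and 1 higher, and it was -0.53 with cisplatin and 0.13 with doxorubicin. MT-CO1, of complex IV, fell from 4406 to 2581, and MT-CYB, of complex III, from 1108 to 699. The 13 together held 6.37% of the summed FPKM of WT and 3.596% of KO cells under tunicamycin, and 4.95% and 3.62% in control.

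Several groups at the cell surface also stood apart from the whole table. Of 26 matrix proteins, 18 were called higher and 4 lower, with COL6A2 and COL6A1, chains of collagen VI, from 7.902 to 46.3 and 13.3 to 41.4, SPARC from 1.01 to 8.28 and the laminin LAMA5 from 15.5 to 33.4. The fibroblast markers rose beside them in sum (3.33 to 9.99) with DCN, LUM and COL3A1 at 0, as given above, and their part in the result was not tested. Matrix proteases and inhibitors went both ways, with 6 of 15 called higher, 5 lower and a median of 0.03, against 0.07 over all genes. Among the proteases' inhibitors, TIMP4 and TIMP3 rose from 2.97 to 33.8 and 14.1 to 55.3, and TIMP2 fell from 98.3 to 46.1. Of 16 antigen presentation genes, 13 were called higher and 1 lower, with a median of 0.77. CD74, the invariant chain, rose from 92.96 to 206, and ERAP1, which trims peptides in the ER, from 17.4 to 40.4. Reads of near-identical members of this list can be shared among copies, which makes their calls uncertain.

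Of 22 interferon-stimulated genes, 8 were called higher and 8 lower, with IRF1 from 24.01 to 57.1 and BST2 from 1.86 to 8.14 against IFIT2 from 35.2 to 19.5 and ISG15 from 246 to 153. Immediate early genes and feedback genes of the MAP kinase pathway were lower in 10 of 16 cases and higher in 5, with DUSP1, a phosphatase of these kinases, from 81.7 to 28.6 and FOSL2 from 66.7 to 39.4. Their median was -0.34, against -0.01 in control, -0.20 with cisplatin and 0.36 with doxorubicin. Of 14 TGF-beta pathway genes, 7 were lower and 3 higher, with the target ID3 from 8.26 to 2.87 and the ligand TGFB1 falling from 60.2 to 38.2 while TGFB2 rose from 25.96 to 48.3.

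Over 8769 genes at 5 FPKM or more and tested in both tables, which share no library, Pearson's r of the log2 ratios was 0.72 and Spearman's rho 0.64, across genes that are not independent. Of 3220 genes higher under tunicamycin, 1748 (54.3%) were higher in control, which is 71.1% of the 2459 higher in control, and 267 were lower there. Of 2188 lower genes, 1310 (59.9%) were lower in control, 60.7% of 2157, and 140 were higher. With cisplatin, where 62.8% of 9221 genes were called, r was 0.78, and with doxorubicin, where 63.9% of 6396 were called, it was 0.80. Among 8697 genes tested in all 4 tables, 517 were called at 2-fold or more under tunicamycin. Of these, 401 were called in the same direction in all 3 other tables and 7 in none. The same shares over all 8697 genes were not computed, so these counts are not read as a result about the 517. The 7 were MPP6, RP11-490M8.1, RPL35P5, NDST2, GCLC, SNHG25 and a Metazoa_SRP copy, a list named after its values were seen.

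**Figure D5:**
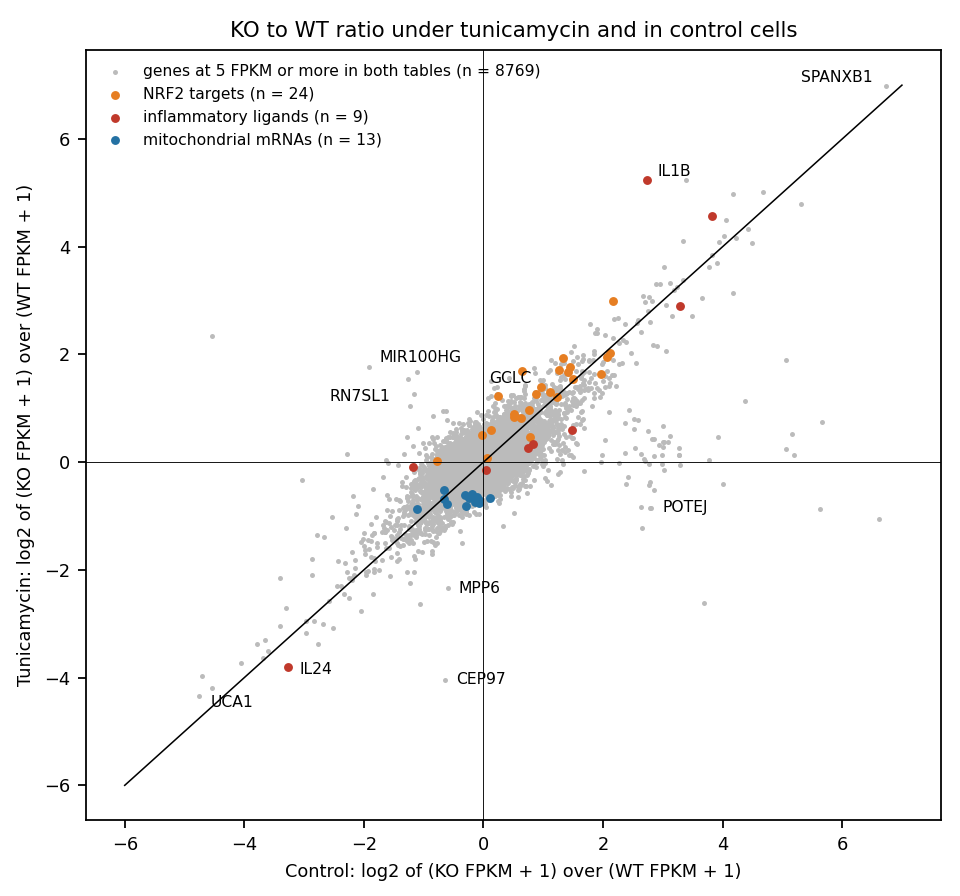
Each point is a gene at 5 FPKM or more and tested in both tables (8769 in grey), with the KO to WT log2 ratio of control cells on the horizontal and of tunicamycin-treated cells on the vertical axis, and the diagonal marks equal ratios. Of the NRF2 targets (orange) 19 of 24 lie above the diagonal, mitochondrial mRNAs (blue) below 0 on the vertical axis, and IL1B and CEP97 are among the points far from it.

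In 182 of the 8769 genes (2.08%) the 2 ratios differed by 1 or more on the log2 scale, 76 upward and 106 downward under tunicamycin. Among them, the called genes with the largest upward difference were MIR100HG, 23.7 to 83.5 against 181 to 47.1 in control, IL1B, 2 copies of Metazoa_SRP, RN7SL1, EFCAB11, RP11-673C5.1 and PEG10. RN7SL1, the RNA of the signal recognition particle, was 293 to 606 under tunicamycin and 241 to 102 in control, in a gene that overlaps RPS29 on the other strand, itself 1868 to 3686. Near-identical copies make the values of this RNA uncertain. PEG10, an imprinted gene of retroviral origin, was 22.95 to 45.4 against 95.96 to 59.9. IL1A, with a larger difference than IL1B, is outside this set because it was under 5 FPKM in control. The largest downward differences were in POTEJ, POTEE, CEP97, RP11-146N23.1, UBBP4, MPP6, AP000783.1 and RPL35P5. POTEJ was 12.9 to 6.73 and 0.761 to 11.3 in control, and shares sequence with its copy POTEE (10.6 to 5.52 and 0.653 to 9.28) and with actin genes. For POTEJ, POTEE, RP11-146N23.1 and UBBP4 it was WT control that was lowest of the 4 groups of these 2 tables, and for CEP97 and MPP6 WT tunicamycin was highest. CEP97 was 8.03 to 6.42 with cisplatin and 0.923 to 0.316 with doxorubicin. MPP6 was 42.96 to 7.66 and 14.5 to 9.21 in control, but 44.4 to 26.4 with cisplatin and 7.94 to 11.3 with doxorubicin, so its WT level under tunicamycin was also reached in WT cells given cisplatin. MPP6 lies in a shifted window of chromosome 7 with a median of -0.63.

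Part of the differences followed chromosome position. Of 265 windows of 10 Mb with 10 or more tested genes, 50 had a median log2 ratio of 0.3 or more in size, 30 higher and 20 lower. They held 1291 tested genes (14.1%) and 18.4% of the calls, and 79.6% of their genes were called against 57.8% elsewhere. The windows were picked by these same ratios, so a higher share of calls in them is built into the choice. On chromosome 13 beyond 30 Mb, 128 of 144 genes were called higher and 7 lower, with a median of 0.996. In the first 30 Mb of chromosome 7, 75 of 86 were called lower and 3 higher, with a median of -1.11. DNA copy number was not measured, and whether such windows bear on the calls within them was not tested beyond leaving them out. Without these windows 224 genes were higher and 140 lower at 2-fold or more. Of the NRF2 targets outside them, 21 of 22 were called higher, and of the ER chaperones outside them, 15 of 16.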

How the data were processed

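RNA of MDA-MB-231 cells, WT and BMAL1 KO, was sequenced in 16 libraries, 2 in each of 8 groups taken from the genotype and treatment labels. The submitters' processing notes name build hg38, STAR 2.5.3, Trimmomatic 0.35, FastQC 0.11.5, and, without a version, Cuffdiff and Cufflinks. Neither the annotation nor the use of strand is given in the sources used here. The authors deposited 4 tables, 1 per treatment, with 1 FPKM value per group from both libraries. They also deposited the log2 ratio of KO over WT, a test statistic (score), p-values and q-values from Cuffdiff. Recomputed log2 ratios and q-values differed from the deposited ones by at most 1.8e-05 and 5.25e-07. Counts per library are not in these tables, so the depth is unknown and no interval can be given. The summed FPKM was 646494 in WT and 709995 in KO under tunicamycin, and the 5th percentile of values above 0 was 0.0211 and 0.0221. The deposited p-values rest on the spread between 2 libraries as Cuffdiff models it, which may be technical.

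From these, log2 ratios with a pseudocount of 1 FPKM were computed for genes at 5 FPKM or more in 1 group, and genes were called at a deposited q of at most 0.05. The calling code was run on simulated data for this comparison, where 200 of 200 changed genes were recovered over 13896 genes with 0 false calls. The simulated p-values were set low for the changed genes and higher for all others, so this outcome was fixed by the setting. It checks the code only and gives no rate of false calls for the deposited q-values. Coordinates are of GENCODE 29 (GRCh38), matched by gene ID for 9141 of 9164 genes, and promoters are RefSeq's. Named genes are ARNTL, the 15 largest called rises and falls, the 8 called genes each way, at 5 FPKM or more in both tables, whose ratio differed most from control, the 5 highest-level genes past 2-fold each way, and members of 47 gene lists that define a list or have its largest ratios. All 758 list genes were found, 19 through another symbol, and the values of 2 of them are counted in their lists but not reported here. The lists and the members were chosen with earlier results of these data known. Alternatives were q at most 0.01, other FPKM filters, pseudocounts, centring on the median and leaving out shifted windows. Analyses used Python 3.11.15, pandas 2.3.3 and numpy 2.4.6.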

Additional observations from a re-analysis of the deposited data

How the results depend on the processing

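With 1 value per group there is no spread between libraries, so leaving out a replicate was not possible. No paired analysis was possible because the deposited columns pool both libraries of a group and carry no replicate number. Over the alternatives run, the count of genes called higher stayed between 2839 and 3784 and of those called lower between 1810 and 3068. The count called higher at 2-fold or more stayed between 224 and 401. The count called lower at 2-fold or more, 238, was 380 with no filter and with a filter of 1 FPKM, 157 with a filter of 10 FPKM, and 140 without shifted windows. Centring on the median gave 274 higher and 277 lower at 2-fold or more. A filter on the mean of both groups, chosen after seeing the data, gave 265 and 179. All 108 recomputed ratios of named genes kept their direction, an outcome fixed in advance. A pseudocount cannot change the direction, and these genes were named for ratios larger than the median of 0.07 that centring takes off. Of 332 recomputed list counts, 307 stayed within 1.5 times. The list medians that changed sign when centred were autophagy (-0.0001), matrix proteases and inhibitors (-0.0345), interferon-stimulated (-0.0436) and the Wnt pathway (-0.0676), so these lists have no direction. A further 17 of the 43 list medians moved by over 1.5 times on centring, among them ER translocation and export (0.11), ATF4 tRNA synthetases (0.13), ATF4 amino acid genes (0.12) and ER-associated degradation (0.0025). A gene whose level is low in both groups is called less often, so a gene that was not called may still differ.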

Other observations

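Metabolic genes outside the stress pathways also differed between KO and WT cells under tunicamycin. Of 23 tested genes of cholesterol synthesis and uptake, 14 were called higher and 2 lower, with a median log2 ratio of 0.25 (0.24 in control). INSIG1, which holds the sterol sensor in the ER, rose from 7.77 to 15.8 FPKM, DHCR7, the last enzyme of the Kandutsch-Russell branch, from 26.9 to 47.1, and SREBF2, the factor that drives the pathway, from 19.00 to 31.7. SREBF1, its paralog for fatty acid genes, fell from 40.3 to 26.6. Of the desaturases, SCD rose from 23.3 to 42.4 and FADS2 from 73.6 to 104, and FASN, fatty acid synthase, fell from 73.3 to 66.9. Of 21 genes of glycolysis and glucose transport, 15 were called higher and 3 lower, with GAPDH from 4971 to 6368, PKM from 1524 to 2344 and the brain-type aldolase ALDOC from 2.42 to 8.61. The glucose transporter SLC2A1 fell from 727 to 421, and SLC2A3 rose from 9.91 to 15.6.

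Of 15 tested genes in the list named cytosolic heat shock, 10 were called higher and 2 lower. The list also holds HSPD1, a mitochondrial chaperonin, so these counts are not of cytosolic chaperones alone. HSPA8 rose from 1162 to 1468 and, in shifted windows, HSPH1 from 50.3 to 93.96 and HSPD1 from 239 to 343. HSP90AA1 fell from 919 to 822 while HSP90AB1 rose from 619.6 to 739.8. Metallothioneins, which bind zinc and copper, split, with MT1X rising from 155 to 228 and MT2A from 1276 to 1513, and MT1E falling from 207 to 128. Of 15 autophagy genes, 5 were called higher and 3 lower. MAP1LC3B (LC3B) rose from 63.5 to 95.6, against 30.04 to 23.3 in control, and the lysosomal LAMP1, in the chromosome 13 segment, rose from 92.1 to 175 while LAMP2 fell from 34.6 to 26.9. Integrin and adhesion genes went both ways, with 9 of 19 called higher and 9 lower. Among integrins, ITGA6 fell from 120.5 to 70.3 and ITGB4, its partner in hemidesmosomes, rose from 88.6 to 146.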
